A study of Mus musculus with 9 samples.

Results

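Activity-dependent immediate early genes were examined in layer IV of the barrel cortex of mice that lack or carry Gap43. The set consisted of Fos, Fosb, Jun, Junb, Egr1, Egr2, Nr4a1, Arc, Rgs2 and Dusp1, and its members were all probe sets to which the platform annotation assigns 1 of these symbols. This gave 13 probe sets of 10 genes, out of 22626 probe sets that are not controls and 12393 genes with a probe set of a single symbol. Rgs2, Egr2 and Jun had 2 probe sets each and the other members had 1. The groups were knockout (KO), heterozygous (HZ) and wild-type (WT) animals for Gap43, all on C57BL/6 and all at postnatal day 5, with 3 mice per genotype and 1 Affymetrix array per mouse. No treatment is given in the labels, and the deleted part of Gap43 is not stated in them. Gap43 encodes a membrane phosphoprotein of growing axons, and the labels name no promoter or cell type that would restrict its deletion. The tissue was cut out by laser microdissection and its RNA was amplified over successive rounds of cDNA synthesis before hybridisation.

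Immediate early genes are transcribed within minutes of synaptic input without new protein synthesis. Calcium entry and growth factor receptors drive signalling cascades that act on CREB, SRF cofactors and MEF2 at their promoters, and the transcripts decay quickly. Some members encode transcription factors that set off a later wave of genes, and others encode proteins that act directly on synapses or that damp the signal which induced them. In the barrel cortex their levels are known to follow whisker input.

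Gap43, the targeted gene, had signals of 979, 1930.2 and 1299 on the KO arrays, 5015, 5039 and 4389 on the HZ arrays and 7089, 4746 and 4294 on the WT arrays. Every KO array lay below every HZ and WT array, while HZ and WT overlapped. Signals are linear MAS5 intensities, scaled so that the mean of each array without its highest and lowest 2% of probe sets was 500.2, and they can be compared between arrays for 1 probe set but not between probe sets. Pairs of arrays correlated at a median r of 0.963 across probe sets, both within and between genotypes. The log2 3'/5' ratio of the Actb and Gapdh control probe sets, a sign of RNA integrity and amplification, was 3.49 to 3.85 on KO, 3.31 to 4.72 on HZ and 3.33 to 3.96 on WT arrays. The array HZ 2 held the highest ratio.

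Promoter sequence was taken from RefSeq on GRCm38.p6, as windows of 250 bases before and 50 bases from the annotated start of transcription. The table used gave 12 windows for 8 members and none for Egr1 and Arc, whose promoters were not searched. The windows were searched on both strands for the cAMP response element (CRE) as TGACGTCA, for its core TGACG, which also lies inside the longer form, for the CArG box bound by SRF, for the AP-1 site TGANTCA, the EGR site GCGTGGGCG, the NR4A site AAAGGTCA and the TATA box TATAAA. The 4 windows below are those of the member with the largest difference between genotypes, of the member whose signals ran opposite to it across arrays, of Fos as the best known gene of the class, and of the member with a full CRE. Capitals mark matches to these motifs, and each sequence is written 5′ to 3′ along its gene. The Rgs2 window is chr1:144004100-144004399 on the minus strand, the Egr2 window chr10:67537619-67537918 on the plus strand, the Fos window chr12:85473640-85473939 on the plus strand and the Dusp1 window chr17:26508423-26508722 on the minus strand.
Rgs2: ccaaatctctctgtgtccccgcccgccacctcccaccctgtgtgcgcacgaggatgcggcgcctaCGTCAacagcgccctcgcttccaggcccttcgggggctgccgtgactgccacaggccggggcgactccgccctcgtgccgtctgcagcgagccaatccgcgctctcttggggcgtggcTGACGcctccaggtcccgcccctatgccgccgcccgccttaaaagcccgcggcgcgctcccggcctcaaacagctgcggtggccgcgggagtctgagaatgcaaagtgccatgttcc
Egr2: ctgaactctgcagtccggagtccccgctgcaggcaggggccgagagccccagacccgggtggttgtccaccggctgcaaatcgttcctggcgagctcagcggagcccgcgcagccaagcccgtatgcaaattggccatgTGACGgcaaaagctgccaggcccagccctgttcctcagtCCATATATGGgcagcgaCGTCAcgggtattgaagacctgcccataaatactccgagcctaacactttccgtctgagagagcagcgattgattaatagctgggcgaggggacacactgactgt
Fos: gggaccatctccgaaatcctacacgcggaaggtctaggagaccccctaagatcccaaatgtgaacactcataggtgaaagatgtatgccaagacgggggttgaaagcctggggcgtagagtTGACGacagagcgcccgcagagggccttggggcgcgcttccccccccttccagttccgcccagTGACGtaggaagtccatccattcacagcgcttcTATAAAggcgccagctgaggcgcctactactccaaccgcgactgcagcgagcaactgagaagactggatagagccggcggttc
Dusp1: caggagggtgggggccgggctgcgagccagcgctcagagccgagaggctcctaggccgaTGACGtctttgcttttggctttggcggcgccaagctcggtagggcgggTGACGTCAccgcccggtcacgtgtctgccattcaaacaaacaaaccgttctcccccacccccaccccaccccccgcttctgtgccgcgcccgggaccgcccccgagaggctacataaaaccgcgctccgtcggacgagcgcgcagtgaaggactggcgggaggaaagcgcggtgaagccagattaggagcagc

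The Rgs2 window held 2 CRE cores, starting at bases -185 and -67 from the start of transcription (the base before the start being -1), and no match to the other motifs. Fos held 2 cores, at -129 and -66, and a TATA box at -33. Egr2 had 5 annotated starts, and the window shown, which 2 others largely overlap, held a CArG box at -72 between cores at -111 and -55. Dusp1 carried the only full CRE among the 12 windows, at -143, and a separate core at -191. The Nr4a1 window held 4 cores, those of Fosb and Junb 1 each, and that of Jun none. The Junb window also held a match to the TATA box, but at bases 1 to 6, on the annotated start itself. Over all 32851 windows of the table, a core was found in 20.8%, a full CRE in 1.79%, a CArG box in 1.63% and a TATA box in 13.6%. AP-1 sites stood in 7.81% of all windows, NR4A sites in 1.51% and EGR sites in 0.612%, and none was matched in a member's window. A match describes letters in the window and is not evidence of binding.

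Differences were tested with limma on log2(signal + 16) over the 13576 probe sets in the upper 60% by mean, with Benjamini-Hochberg adjustment over all of them, and 9 member probe sets of 8 genes were among these. Arc, Junb, and the second probe sets of Jun and Egr2 were too dim to be tested. A difference on this scale understates the ratio of dim probe sets. No member probe set passed an adjusted p of 0.05 in limma in any comparison (0 of 9 in each), where the share passing over all probe sets was 0.00737% in KO against WT, 0.0% in HZ against WT and 0.00737% in KO against HZ. At an unadjusted p under 0.05, 2 of the 9 were lower in KO against WT and 2 were lower in KO against HZ, and in both cases these were the probe sets of Rgs2. The matching shares of all probe sets were 3.59% and 3.76%. None of the 9 was higher at that threshold, where the background was 4.43% in KO against WT and 3.96% in KO against HZ. For HZ against WT none was lower (background 2.16%) and none was higher (4.06%). These background counts depend on the scaling of the arrays. For KO against WT, 488 probe sets were lower and 602 higher, but 761 and 359 with each array set to 1 median. For HZ against WT, 293 were lower and 551 higher, but 723 and 218 with 1 median and 382 and 393 with quantile normalization. For KO against HZ, 511 were lower and 538 higher, but 376 and 686 with 1 median. The comparisons of KO with WT and with HZ share the KO arrays.

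The 10 members showed no common direction. The median log2 difference over the members, taking the brighter probe set of a gene, was -0.04 for KO against WT, with 5 below and 5 above 0, against 0.02 over the 8503 genes tested. For HZ against WT it was 0.03, again 5 below and 5 above, against 0.04 over all genes. For KO against HZ it was 0.04, with 4 below and 6 above, against -0.03 over all genes. The plot of signals by array shows the members beside each other.

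**Figure D1:**
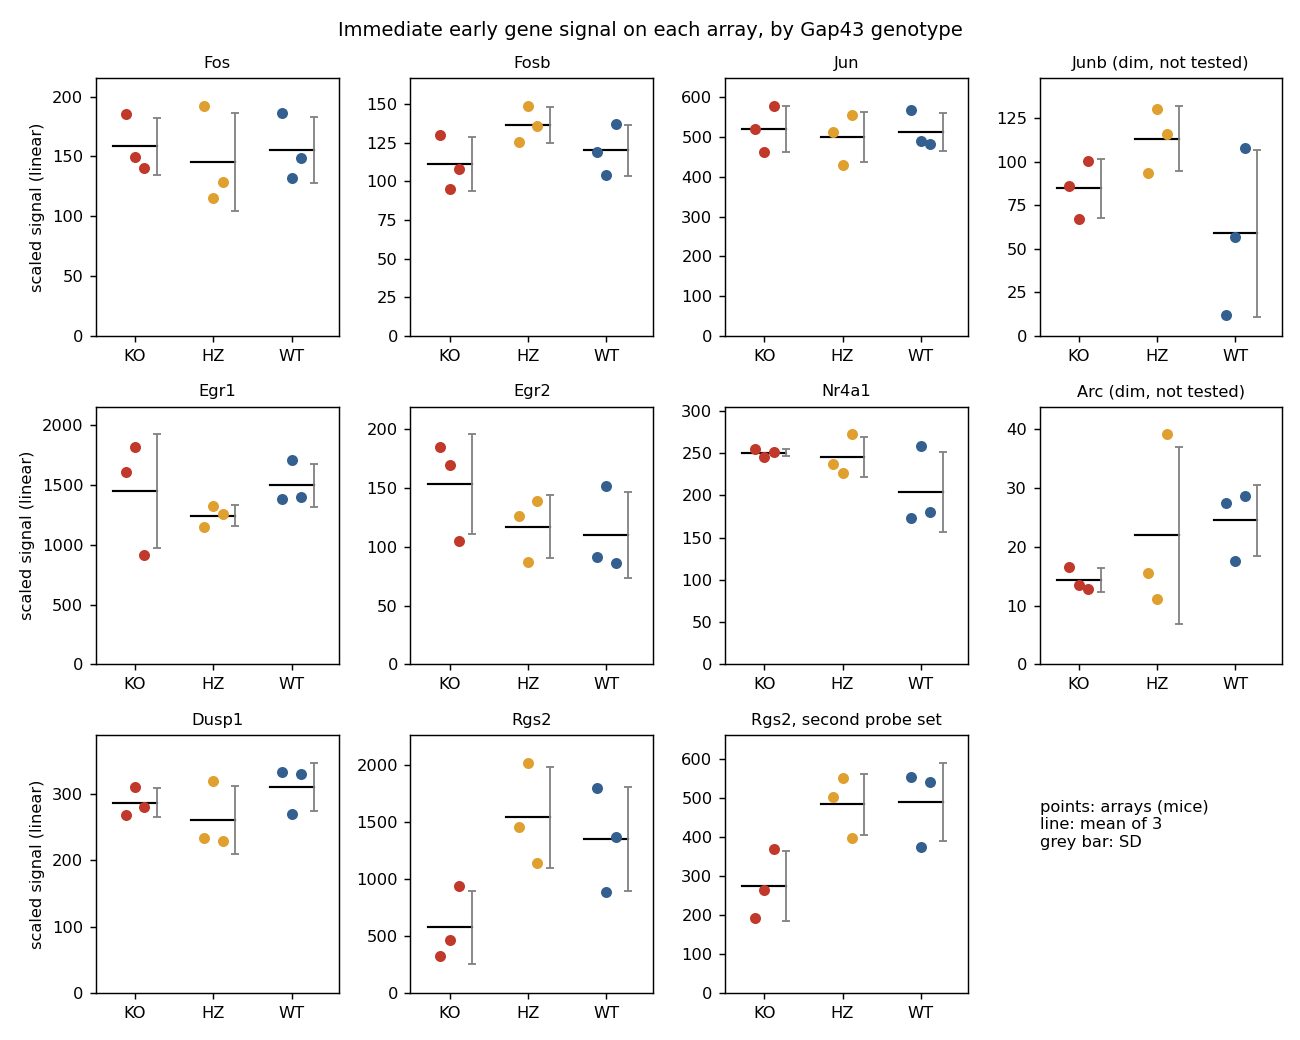
Linear scaled signal (y axis, from 0, a scale of its own in each panel) on each of the 9 arrays, grouped by genotype (x axis: KO red, HZ orange, WT blue). Points are arrays of single mice, lines are means of 3 and grey bars are the SD. Rgs2 shows the largest difference of the tested members, with KO arrays at 326 to 933 on its brighter probe set. On that probe set KO 3 lies above WT 2, at 881. The genotypes also overlap for most other members.

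Rgs2, which encodes a regulator of G protein signalling that speeds GTP hydrolysis by the Gq alpha subunit and so shortens receptor signals, showed the largest difference of the tested members. Its brighter probe set gave 326, 460.3 and 933 on the KO arrays, 1455, 2014 and 1139.9 on the HZ arrays, and 1791, 881 and 1365 on the WT arrays. All KO arrays lay below all HZ arrays, whereas KO 3, at 933, lay above WT 2, at 881. The mean was 573 ± 319 in KO, 1536 ± 443 in HZ and 1346 ± 455 in WT (SD, n = 3 each), so that KO stood at 42.6% of WT and 37.3% of HZ. The log2 difference of KO against WT was -1.29 (95% interval -2.03 to -0.54, 2.44-fold lower, limma adjusted p = 0.460). That of KO against HZ was -1.49 (interval -2.24 to -0.75, 2.82-fold lower, limma adjusted p = 0.307). Among the 13576 probe sets this was rank 72 by limma p against WT and rank 36 against HZ, and neither difference passed the adjusted threshold. Exact permutation tests (2-sided) gave p = 0.2 against WT and p = 0.1 against HZ, where a design of 3 arrays a side cannot go under 0.1. For HZ against WT the log2 difference was 0.21 with an interval of -0.54 to 0.95, which includes 0 (limma adjusted p = 0.905). Order by mean was HZ, WT, KO, and HZ and WT did not differ beyond their spread.

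The second Rgs2 probe set gave 191, 264 and 369.6 on the KO arrays, 504, 550.3 and 397 on the HZ arrays, and 554, 374 and 541 on the WT arrays. Here every KO array lay below every HZ and every WT array, by a narrow margin between KO 3 and WT 2. Means were 275 ± 89.7 in KO, 484 ± 78.7 in HZ and 490 ± 100 in WT (SD, n = 3 each). The log2 difference was -0.82 in KO against WT (interval -1.34 to -0.31, limma adjusted p = 0.461) and -0.81 in KO against HZ (interval -1.33 to -0.30, limma adjusted p = 0.441). Exact permutation tests gave 0.1 for both, the smallest p possible. HZ and WT differed by -0.01 (interval -0.52 to 0.50). Among the 9 tested member probe sets, this 1 was lower with no overlap in KO against WT (background 5.83%), and both Rgs2 probe sets were in KO against HZ (background 7.35%).

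Both probe sets read the arrays in nearly the same order, with r = 0.982 and rho = 0.95 over 9 arrays and r = 0.966 after the genotype means were taken out. Both thus recorded the same variation between mice of a genotype, although they share the same RNA. The brighter probe set moved over a wider range. Its ratio to the other was 1.70, 1.75 and 2.52 on KO, 2.89, 3.66 and 2.87 on HZ and 3.23, 2.36 and 2.52 on WT arrays. The brighter Rgs2 probe set also varied most between mice of 1 genotype among the tested member probe sets. Its pooled SD on the log2 scale was 0.57, above 97.2% of tested probe sets, while Egr2 stood at percentile 85.6, Egr1 at 77.5, Fos at 61.8, Nr4a1 at 30.9, Dusp1 at 29.9, Fosb at 20.8 and Jun at 18.1.

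The size of the Rgs2 difference depended on KO 3, the KO array nearest to the other genotypes. Without it the log2 difference was -1.70 against WT (limma adjusted p = 0.164) and -1.91 against HZ (limma adjusted p = 0.0619), and without KO 1 it was -0.96 against WT (limma adjusted p = 0.881) and -1.17 against HZ (limma adjusted p = 0.533). With the 3'/5' ratio as a covariate the differences were -1.29 and -1.49. Over all 9 arrays the ratio and the brighter Rgs2 probe set correlated at r = 0.03 (permutation p = 0.944, adjusted p = 0.944 over 9 member probe sets) and rho = -0.18 (permutation p = 0.643, adjusted p = 0.764), but without the 2 arrays farthest from the median ratio r was -0.89. The part of RNA quality in the Rgs2 values was not tested further.

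**Figure D2:**
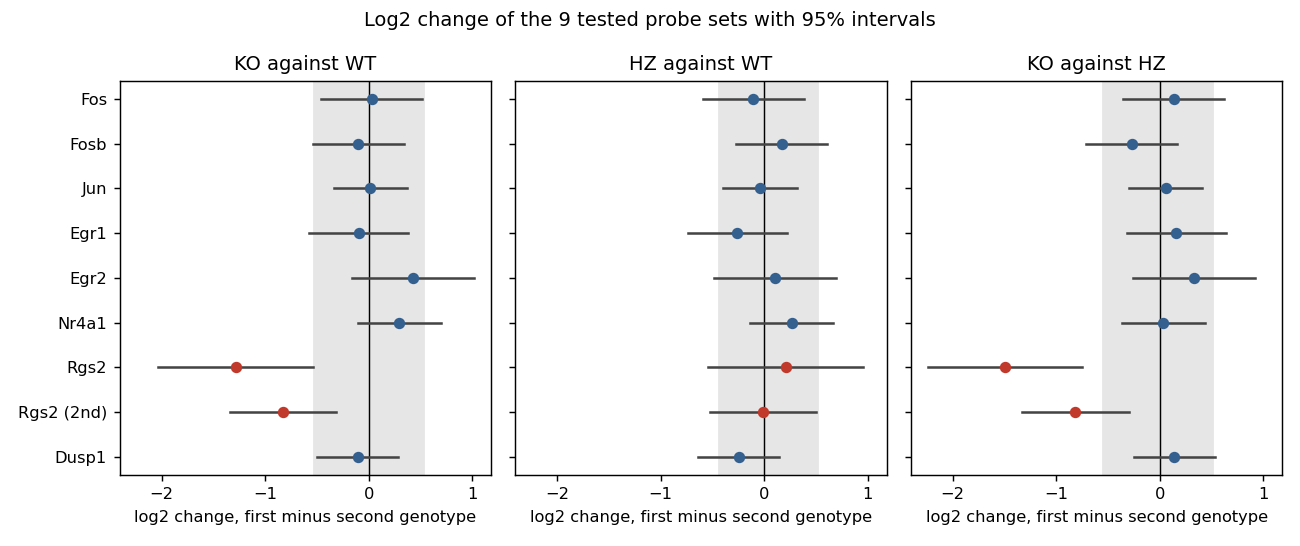
Log2 difference of the 9 tested probe sets (x axis) for KO against WT, HZ against WT and KO against HZ, with 95% limma intervals as lines. The grey band holds the central 95% of the 8503 genes tested. Both Rgs2 probe sets (red) have intervals below 0 in the panels with KO, and the intervals of the other members (blue) cross 0 in all 3 panels.

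The AP-1 members encode subunits of dimeric leucine zipper factors, in which a Fos protein pairs with a Jun protein. Fos gave 185, 149 and 140.4 on KO arrays, 192, 115 and 128 on HZ arrays and 186, 132 and 148 on WT arrays. The groups overlapped throughout, and the log2 difference of KO against WT was 0.03 (interval -0.46 to 0.52), that of HZ against WT was -0.10 (-0.59 to 0.38) and that of KO against HZ was 0.13 (-0.35 to 0.62). The interval of KO against WT leaves ratios of 0.727 to 1.43. Fosb, the paralogue that also gives the long-lived splice form ΔFosB, read 129.7, 95.3 and 108 on KO arrays, 125, 149 and 136 on HZ arrays and 119, 104 and 137 on WT arrays. Its largest difference was KO against HZ, at -0.27 (interval -0.71 to 0.17, limma adjusted p = 0.809), and the groups overlapped.

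Jun, the partner in most AP-1 dimers, was the member with the smallest spread among the tested ones. Its brighter probe set read 520.2, 461 and 578 on KO arrays, 512, 431 and 557 on HZ arrays and 569, 491 and 482 on WT arrays. The KO against WT difference was 0.01 with an interval of -0.34 to 0.37, so that ratios beyond 0.79 and 1.29 lay outside it. Its dim second probe set ranged from 37.7 to 103 and correlated with the brighter one at r = -0.01 over 9 arrays, and at 0.64 without the 2 arrays farthest from the median. Junb, which opposes Jun at some AP-1 sites, was below the filter. It read 85.9, 67.4 and 100.6 on KO arrays, 93.2, 130.4 and 116 on HZ arrays and 12.05, 56.7 and 108 on WT arrays. The WT arrays alone spanned 8.96-fold, and exact permutation tests gave p = 0.5 for KO against WT and p = 0.2 for HZ against WT.

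The zinc finger factors of the EGR family bind GC-rich elements and link early signals to later targets. Egr1, also known as Zif268 and widely used as a marker of cortical activity, read 1611, 1819 and 915 on KO arrays, 1146, 1325 and 1261 on HZ arrays and 1383, 1706 and 1401 on WT arrays. All HZ arrays lay below all WT arrays, while the KO arrays spanned both groups because KO 3 was the lowest of the 9 and KO 2 the highest. The log2 difference of HZ against WT was -0.26 (interval -0.73 to 0.22, limma adjusted p = 0.836, exact permutation p = 0.1). It was the 1 of 9 tested member probe sets lower without overlap in HZ against WT, where 4.39% of all probe sets were. For KO against WT the difference was -0.10 (interval -0.57 to 0.38), and it turned to 0.20 without KO 3.

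Egr2, known as Krox20 and also needed for hindbrain patterning and myelination, read 185, 169.6 and 105 on KO arrays, 126, 87.1 and 139 on HZ arrays and 91.3, 152 and 86.4 on WT arrays with its brighter probe set. Its mean was 153 ± 42.4 in KO, 117 ± 27.0 in HZ and 109.9 ± 36.5 in WT (SD, n = 3 each). The KO against WT difference of 0.43 was the largest positive one among tested members, but its interval ran from -0.16 to 1.02 (limma adjusted p = 0.735) and the groups overlapped. The dim second probe set read 65.3, 97.1 and 31.3 on KO arrays, 19.95, 22.1 and 14.1 on HZ arrays and 19.0, 74.5 and 63.1 on WT arrays. Its KO arrays all lay above its HZ arrays (exact permutation p = 0.1), an order that the brighter probe set did not show. The pair correlated at r = 0.50 over 9 arrays.

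Nr4a1, the orphan nuclear receptor Nur77, was the member with the tightest KO group. It read 254, 246 and 251 on KO arrays, 237, 227 and 272 on HZ arrays and 173, 259 and 180.2 on WT arrays. WT 1 and WT 3 lay below all other arrays, and WT 2 lay within the range of the other genotypes. The log2 difference was 0.30 for KO against WT (interval -0.10 to 0.70, limma adjusted p = 0.729) and 0.26 for HZ against WT (interval -0.14 to 0.66, limma adjusted p = 0.812). Without WT 2 they were 0.47 (limma adjusted p = 0.424) and 0.43 (limma adjusted p = 0.579).

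Dusp1, a nuclear phosphatase that switches off MAP kinases, read 268, 311 and 279.96 on KO arrays, 234, 319.6 and 229 on HZ arrays and 333, 269 and 330.3 on WT arrays. The difference was -0.11 in KO against WT (interval -0.50 to 0.28), -0.25 in HZ against WT (-0.64 to 0.14) and 0.14 in KO against HZ (-0.25 to 0.53), and the groups overlapped in each. Arc, whose product acts in the postsynapse on the removal of AMPA receptors, was the dimmest member. It read 16.6, 13.5 and 12.9 on KO arrays, 15.5, 11.2 and 39.0 on HZ arrays and 27.4, 17.5 and 28.5 on WT arrays. All KO arrays lay below all WT arrays (exact permutation p = 0.1), but at these signals a probe set is near the pseudocount and was left out of the fit.

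Few pairs of members followed each other from mouse to mouse. Of 45 pairs of members, 18 correlated positively over the 9 arrays, the median r was -0.08, and 3 pairs had a permutation p under 0.05, of which 0 passed adjustment over the 45. The closest relation was that of Egr2 and Rgs2, which ran opposite (r = -0.861, permutation p = 0.0017, adjusted p = 0.0774, rho = -0.833, permutation p = 0.0081, adjusted p = 0.237). It gave r = -0.833 without the 2 arrays farthest from the median and -0.934 after the genotype means were taken out. Nr4a1 and Dusp1 also ran opposite (r = -0.736, permutation p = 0.0215, adjusted p = 0.385). The third pair, Egr2 and Nr4a1, ran the same way (r = 0.717, permutation p = 0.0257, adjusted p = 0.385) and gave r = 0.716 after the genotype means were taken out.

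**Figure D3:**
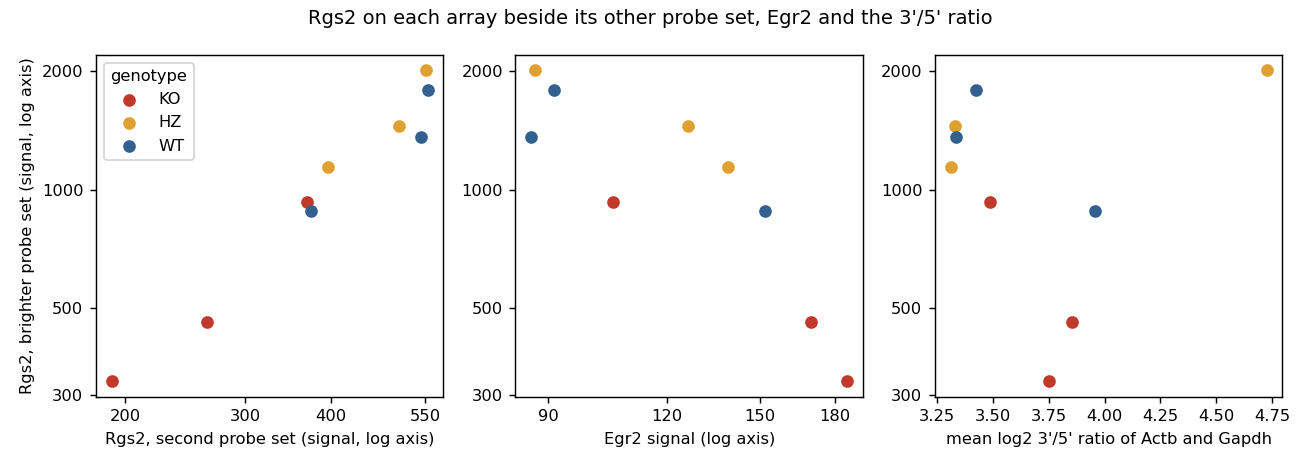
Signal of the brighter Rgs2 probe set (y axis, log scale) on the 9 arrays against its second probe set (left, log scale), Egr2 (middle, log scale) and the mean log2 3'/5' ratio of Actb and Gapdh (right). Points are arrays, coloured by genotype. Both Rgs2 probe sets order the arrays alike (r = 0.982), Egr2 runs opposite (r = -0.861), and the array HZ 2 lies apart on the ratio at 4.72.

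Genes of the most similar pattern were sought among 8495 other genes by Pearson r over the 9 arrays, as a description without a test. The nearest to Rgs2 were Trim13 (r = 0.966), a membrane-bound ubiquitin ligase, Emc2 (r = 0.948), a subunit of the ER membrane protein complex, and Fdx1 (r = 0.942), a mitochondrial ferredoxin. Trim13 read 387, 402 and 542 on KO arrays, 668, 684 and 538 on HZ arrays and 712, 486 and 669 on WT arrays, with KO 3 again highest of KO and WT 2 lowest of WT. After the genotype means were taken out its r was 0.931. The mean of the tested members, each standardised first, was most like Icam5 (r = 0.931), a neuronal adhesion molecule of dendrites, followed by Adam33 (0.919), Sult4a1 (0.901), Chkb (0.891) and Rhbdd2 (0.865). That mean was highest on KO 1 (0.11) and lowest on KO 3 (-0.09), so its range lay within 1 genotype.

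Further activity-regulated genes were described from a list of 51, of which 46 had a probe set and 33 were tested. In KO against WT, 10 were below and 23 above 0, with a median of 0.14 against 0.02 over all genes, and 0 passed the adjusted threshold in limma. At an unadjusted p under 0.05, 1 of the 33 was lower and 5 were higher, where 3.59% and 4.43% of all probe sets were. The lower one was Egr4, a paralogue of Egr1, at 123, 66.0 and 78.2 on KO arrays and 149, 198 and 129 on WT arrays, 1.68-fold lower without overlap (limma adjusted p = 0.518). Dusp6, a cytoplasmic phosphatase of ERK, read 431, 331 and 299.8 on KO arrays, 137, 104 and 220.02 on HZ arrays and 242, 158 and 241 on WT arrays. All its KO arrays were above all others, 1.62-fold against WT (limma adjusted p = 0.537) and 2.24-fold against HZ (limma adjusted p = 0.263). Pcsk1, a convertase of prohormones, was 1.52-fold higher in KO against WT (limma adjusted p = 0.519). Ccn1, a matricellular protein, was 1.55-fold higher (limma adjusted p = 0.537), but its other probe set had a log2 difference of -0.09. The other 2 at that threshold were Klf6 (0.35) and Myc (0.44), named after their values were seen. Gadd45g, a stress and growth arrest gene, and Egr3 had log2 differences of -0.85 and -0.68 with limma p above 0.05.

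In HZ against WT, 13 of the 33 were below and 20 above 0, with a median of 0.10 against 0.04 over all genes. At an unadjusted p under 0.05, 2 were lower and 1 was higher (2.16% and 4.06% of all probe sets). Gadd45g read 96.2, 107 and 79.6 on HZ arrays and 243, 222 and 342 on WT arrays, 2.56-fold lower without overlap (limma adjusted p = 0.789). Egr3 was 1.86-fold lower with overlap, and Nfil3, a leucine zipper repressor, 1.50-fold higher (limma adjusted p = 0.789 for both). Sgk1 (-0.36), Nr4a2 (0.43, other probe set 0.12) and Ptgs2 (0.37, other probe set -0.02) followed, with limma p above 0.05. In KO against HZ, 14 were below and 19 above 0, with a median of 0.04 against -0.03, and 3 were lower and 3 higher at that threshold (3.76% and 3.96% of all probe sets). Besides Dusp6, the kinases Plk2 (0.72) and Pim1 (0.66) were higher in KO without overlap, and Nfil3 (-0.58), Ptgs2 (-0.48) and Egr4 (-0.60) lower, at limma adjusted p from 0.519 to 0.609. For Pim1 the other probe set had the opposite sign, at -0.09. The share of all probe sets higher without overlap was not counted. In KO against HZ, 7.35% of all probe sets were lower without overlap.

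Upstream of these genes, a list of 44 receptor, kinase and transcription factor genes had 27 with a probe set and 24 tested. In KO against WT, 7 were below and 17 above 0 (median 0.08), in HZ against WT 7 and 17 (median 0.04), and in KO against HZ 13 and 11 (median -0.01), and 0 passed the adjusted threshold in limma. The kinase gene Map2k1, whose product activates ERK, read 980.1, 1066 and 1277 on KO arrays and 1523, 1321 and 1564 on WT arrays, 1.33-fold lower without overlap (limma adjusted p = 0.537). Mef2a, a factor at activity-regulated enhancers, was 1.30-fold lower in KO against WT (limma adjusted p = 0.589) and 1.32-fold lower in KO against HZ (0.590), while its 4 other probe sets lay between -0.13 and 0.04 against WT and between -0.25 and 0.07 against HZ. Grin2b, an NMDA receptor subunit, was 1.67-fold lower in KO against HZ (limma adjusted p = 0.441), with its other probe set at 0.80, the opposite sign, and in KO against WT the pair stood at -0.43 and 1.73. Srf, the factor of the CArG box, was 1.37-fold higher in HZ against WT (other probe set -0.47). Its partner Elk1 was 1.33-fold higher (other probe set 0.06), with limma adjusted p = 0.789 for both genes. Camk2b (0.33), Map2k2 (0.39, other probe set 0.01) and Elk1 (0.25, other probe set 0.21) were the positive ones of smallest p in KO against WT, all with limma p above 0.05. Elk3 (0.33, other probe sets 0.41 and 0.67) followed in HZ against WT on that side, with Ppp3cb (-0.38, other probe set 0.38), Map2k1 (-0.25) and Crebbp (-0.23) on the other. In KO against HZ Srf (-0.26, other probe set 0.27), Camk2b (0.30), Crebbp (0.25) and Mef2c (0.15, other probe sets -0.05 to 0.26) had limma p above 0.05.

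**Figure D4:**
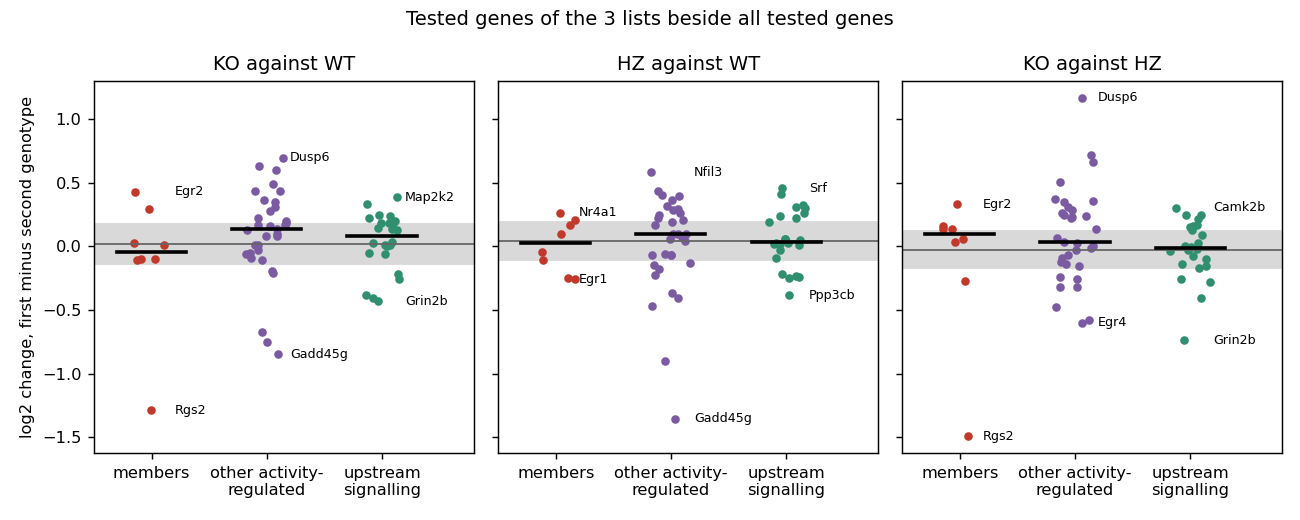
Log2 difference (y axis) of each tested gene of the member set (red), of other activity-regulated genes (purple) and of upstream signalling genes (green), in the 3 comparisons. Black bars are medians over the tested genes, the grey band is the interquartile range and the grey line the median of the 8503 genes tested. Rgs2 lies lowest in both panels with KO, at -1.29 and -1.49, and Gadd45g lies lowest in HZ against WT, at -1.36.

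Markers of the tissue and of other cells were set beside these values. In bulk tissue, fewer cells of a type and less RNA per cell cannot be told apart. Over all genes tested, 46.4% were below 0 in KO against WT, 43.3% in HZ against WT and 54.9% in KO against HZ. Of 6 layer IV markers, 4 had a probe set and 3 were tested. All 3 were below 0 both in KO against WT and in KO against HZ, though Scnn1a by only 0.02 on the log2 scale against WT. At an unadjusted limma p under 0.05, 2 of the 3 were lower in KO against WT and 1 in KO against HZ. The shares of all probe sets were 3.59% and 3.76%, and 0 of the 3 passed adjustment. The summed signal of the 4 with a probe set was 1118 to 1464 on KO, 1672 to 2151 on HZ and 1794 to 1889.6 on WT arrays, so that KO stood apart. Rora, the brightest, read 543, 911 and 731 on KO arrays, 1071, 914 and 856 on HZ arrays and 1065, 1097 and 967 on WT arrays. Rorb, chosen after its values were seen, read 325, 356 and 302 on KO arrays, 709, 518 and 601 on HZ arrays and 541, 459.7 and 589 on WT arrays. Its KO values lay below all others. Scnn1a, also chosen after its values were seen, read 160.2, 160.3 and 161 on KO arrays, 262, 246 and 147 on HZ arrays and 160.2, 191 and 142 on WT arrays. Of 8 tested astrocyte markers, 7 were below 0 in KO against WT and 5 in KO against HZ. The summed signals of all 9 with a probe set were 9471 to 14031 on KO, 13217 to 13911 on HZ and 13867 to 18288 on WT arrays. The brightest, Glul, read 3648 to 5186 on KO, 3715 to 4232 on HZ and 4766 to 6413 on WT arrays. At an unadjusted p under 0.05, 5 of the 8 were lower in KO against WT and 3 in KO against HZ, where 3.59% and 3.76% of all probe sets were, and 0 passed the adjusted threshold in limma. Gja1, the gap junction gene connexin 43, chosen after its values were seen, read 2298, 2527 and 1731 on KO arrays, 3948, 4380.3 and 3665 on HZ arrays and 3819, 4592 and 5081 on WT arrays. All its KO arrays lay below all others, with log2 differences of -1.04 against WT (limma adjusted p = 0.114) and -0.88 against HZ (limma adjusted p = 0.205). S100b, chosen likewise, read 128, 96.9 and 99.0 on KO arrays, 186, 166 and 204 on HZ arrays and 176, 277 and 223 on WT arrays, also without overlap. The astrocyte list was not uniform. Gfap had log2 differences of 0.11 in KO against WT and 0.32 in KO against HZ. Aqp4 stood at -0.03 and 0.14, and Glul at -0.38 and 0.11. All 4 tested microglia markers were below 0 in each comparison, with medians of -0.37 in KO against WT, -0.12 in HZ against WT and -0.26 in KO against HZ. At an unadjusted limma p under 0.05, 1 of the 4 was lower in KO against WT and 0 in the other comparisons. The sums of all 10 with a probe set were 1490.3 to 1979 on KO, 1727 to 2234 on HZ and 1714 to 3697 on WT arrays, the highest being WT 2. The part of these cell types in the Rgs2 values was not tested.

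Other marker sums overlapped between genotypes. Those of 6 neuron markers were 18366 to 24481 on KO, 20302 to 22291 on HZ and 21064 to 21995 on WT arrays, and those of 5 upper layer markers 16339 to 18418 on KO, 15203 to 17698 on HZ and 15059.7 to 17342 on WT arrays. Deep layer markers summed to 867 to 2571 on KO, 1173 to 1729 on HZ and 1283 to 2332 on WT arrays. Oligodendrocyte lineage markers summed to 3449.5 to 5106 on KO, 4795 to 5882 on HZ and 4966 to 6927 on WT arrays, and endothelial and mural markers to 4096 to 5406 on KO, 5074 to 5759 on HZ and 4671 to 5182 on WT arrays. Markers of red blood cells, with 2 probe sets and 0 tested, summed to 129 to 315 on KO, 123 to 199.95 on HZ and 96.9 to 292 on WT arrays. Those of choroid plexus and meninges summed to 449 to 744 on KO, 546 to 604 on HZ and 528 to 665 on WT arrays. No marker was listed at 0 on any array. A sum can follow its brightest marker and hide others. At an unadjusted limma p under 0.05, 2 of 6 neuron markers were higher in KO against WT and 1 in KO against HZ. Of 5 upper layer markers 1 was lower in KO against HZ. Of 6 oligodendrocyte lineage markers 2 were lower in KO against WT and 1 in KO against HZ, and 1 higher in HZ against WT. The other tested sets here had 0. The shares of all probe sets were 3.59% to 4.43%, and 0 of these markers passed adjustment.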

How the data were processed

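Layer IV RNA of 9 mice, 3 per Gap43 genotype, was hybridised to 1 array each. The authors deposited linear signal intensities, 1 per probe set. Per the submitters' processing notes these come from MAS5 in Affymetrix Expression Console, of which no version or target level is given in the sources used here. Every array had a trimmed mean near 500.2, so the intensities had been scaled to a common level, which assumes that most transcripts are alike between arrays, and MAS5 values are noisy where signal is dim. The number of arrays limits the precision.

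From 22690 probe sets, 64 controls were left out, and log2(signal + 16) was fitted for the 13576 probe sets in the upper 60% by mean (lowest mean about 118) with limma 3.58.1 in R 4.3.3. The fit had genotype as its only term, an intensity trend, 6 residual and 6.94 prior degrees of freedom, and Benjamini-Hochberg adjustment over all kept probe sets at 0.05. The procedure was tested on simulated data. Exact permutation tests were 2-sided, and correlations used 100000 permutations in Python 3.11.15 with scipy 1.17.1. Genes were named from the platform annotation (20380 probe sets with 1 symbol, 691 with several and 1555 with none), and all 13 member probe sets matched RefSeq. A gene was read by its brightest probe set.

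The members and the gene lists (other activity-regulated, upstream signalling, heat shock and cell type markers) were chosen with earlier results of these data known. Genes named were all members, in each comparison the 3 of smallest p in each direction from the activity-regulated and upstream lists, the 5 and 3 genes most like the member mean and Rgs2, the brightest marker of a list, and Gap43. Alternatives covered the pseudocount, filter, trend, normalization, array weights, arrays in the fit, a replicate block, the 3'/5' ratio, the choice of probe set and leaving out each array.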

Additional observations from a re-analysis of the deposited data

How the results depend on the processing

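No member probe set passed the adjusted threshold in limma in any of the 3 comparisons under 11 alternatives or with any of the 9 arrays left out (0 in each). Rgs2 stayed below 0 in KO against WT (-1.35 to -1.05 over the alternatives, -1.70 to -0.96 with 1 array left out) and in KO against HZ (-1.52 to -1.15, and -1.91 to -1.17). Replicate numbers did not pair the arrays: same-numbered arrays correlated at -0.255 to 0.111 in their deviations, 3 of 9 best with their own number. With the replicate block, 0 member probe sets passed, Rgs2 had a limma adjusted p of 0.548 against WT and 0.394 against HZ in KO, and of all probe sets 1 passed in KO against WT, 0 in HZ against WT and 2 in KO against HZ (1, 0 and 1 without the block). The median over the members for KO against HZ was -0.084, in place of 0.04, with the mean of all probe sets of a gene. The sign of these medians was not stable in any comparison. For KO against HZ the median ran from -0.084 to 0.075 over the alternatives and from -0.031 to 0.064 with 1 array left out. For HZ against WT the ranges were -0.058 to 0.060 and -0.068 to 0.055. For KO against WT they were -0.10 to -0.030 and -0.072 to 0.026. Of 438 values of single members under alternatives 13 turned sign. For Fos in KO against WT these were -0.030 with quantile normalization, -0.029 with arrays set to 1 median and -0.024 with array weights. For Jun they were -0.046 with 1 median and -0.052 with the mean of probe sets in KO against WT, 0.033 with array weights, 0.0072 with the 3'/5' ratio and 0.15 with the mean of probe sets in HZ against WT, and -0.20 with the mean of probe sets in KO against HZ. In HZ against WT Egr2 gave -0.00023 with quantile normalization and -0.38 with the mean of probe sets, and Rgs2 gave -0.051 with array weights. Nr4a1 gave -0.0054 in KO against HZ with array weights. The cause was not tested. With 1 array left out, 28 of 351 values turned sign. Their ranges were, in KO against WT, -0.079 to 0.15 for Fos, -0.062 to 0.095 for Jun and -0.29 to 0.20 for Egr1, in HZ against WT -0.30 to 0.029 for Fos, -0.12 to 0.058 for Jun, -0.031 to 0.33 for Egr2, -0.064 to 0.44 for Rgs2 and -0.19 to 0.12 for its second probe set, and in KO against HZ -0.00050 to 0.33 for Fos, -0.043 to 0.14 for Jun, -0.032 to 0.46 for Egr1 and -0.020 to 0.10 for Nr4a1. Among the untested probe sets they were -0.31 to 0.25 for the second of Jun and -0.16 to 0.61 for the second of Egr2 in KO against WT, and for Arc -0.46 to 0.052 in HZ against WT and -0.46 to 0.050 in KO against HZ. At an unadjusted limma p under 0.05 further members appeared: Nr4a1 (0.40) and Egr2 (0.54) in KO against WT and Nr4a1 (0.40) and Dusp1 (-0.40) in HZ against WT with array weights, Egr2 (0.66) in KO against WT and Egr1 (0.46) in KO against HZ without KO 3, Nr4a1 (0.47) and Egr2 (0.66) in KO against WT and Nr4a1 (0.43) in HZ against WT without WT 2, Dusp1 (-0.40) in HZ against WT without HZ 2, and, without the filter, Junb in HZ against WT (1.02) and the second Egr2 probe set in KO against HZ (1.13). Over all probe sets, array weights gave 706 lower and 902 higher for KO against WT (488 and 602 at the main setting), 550 and 1272 for HZ against WT (293 and 551) and 765 and 677 for KO against HZ (511 and 538), and passed 5, 3 and 1 after adjustment. Without the filter these were 717 and 917, 454 and 904, and 845 and 782. With 1 array left out the lower and higher counts ran from 328 to 653 and 361 to 775 for KO against WT, 259 to 437 and 343 to 703 for HZ against WT, and 349 to 596 and 387 to 637 for KO against HZ. Arc and Junb lay below the filter, so their differences rest on dim signals.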

Other observations

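Heat shock genes, which also respond quickly to handling and tissue stress, were read beside the immediate early genes. Of 12 in the list, 11 had a probe set and 10 were tested, and 5 were below and 5 above 0 in KO against WT, 5 and 5 in HZ against WT, and 4 and 6 in KO against HZ. The summed signal of the 11 with a probe set was 50061.5 to 58467 on KO, 49305 to 52441 on HZ and 52429.5 to 54043.5 on WT arrays. The brightest, Hspa8, read 18279, 15998 and 19565 on KO arrays, 13181, 17628 and 14828 on HZ arrays and 14136, 17451 and 16436 on WT arrays, with the genotypes overlapping. Hspa1b, chosen after its values were seen, was the 1 gene of the 10 at an unadjusted p under 0.05. Its log2 difference was 0.51 in KO against WT (limma adjusted p = 0.586), where 4.43% of all probe sets were higher at that threshold.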
